A study of Rattus norvegicus with 35 samples.

Results

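A set of 9 genes whose transcripts were far lower 24 h after UVC in neonatal rat heart cells is described here across both cell populations and all stressors of the study. The genes are Cyp7b1, Ptprm, Slit3, Nfia, Adgrl2, Plcl1, Inpp4a, Stk39 and Scfd2, which makes 9 of the 4736 genes that the array's annotation names by a single symbol, and they are read by 18 of the 8740 probe-sets tested. They were chosen by their measured log2 change after UV, as large falls: Cyp7b1, Ptprm, Slit3, Nfia, Adgrl2 and Plcl1 in fibroblasts after UV, and Inpp4a, Stk39 and Scfd2 in cardiac myocyte (CM)-enriched fractions after UV. The contrast that picked a gene is therefore given for that gene as a description with no test, and tests are given for the other population and for the other stressors.

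UVC joins neighbouring pyrimidines of DNA into dimers, and RNA polymerase II stalls where it meets one on the strand that it reads. Such damage is removed by nucleotide excision repair, which transcription itself helps to call in. The longer a transcribed gene, the more bases a polymerase has to read without meeting a lesion, so gene length is a known factor in the loss of transcripts after UVC in cultured cells.

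Transcript levels came from 35 Affymetrix rat genome arrays, with 1 array for each RNA sample. Cells came from ventricles of neonatal rat hearts, and pre-plating parted them into CM-enriched cultures and fibroblast (FB) cultures. Both populations received UVC at 10 J/m2, X-rays (ionising radiation, IR) at 8.5 Gy, or cyclic stretch for 24 h (mechanical stress, MS), with RNA taken 24 h after radiation or at the end of stretch, and the controls were sham-irradiated or left unstretched. After UV and IR, treated and control CM-enriched cultures were also fractionated by centrifugal elutriation, whereas fibroblasts were not, and the stretched cells and their controls grew on collagen-coated plates without that step. Every group held 3 arrays from separately numbered experiments except the CM UV controls, which held 2, so that the CM change after UV rests on 2 numbered pairs and the treated array of experiment 3 has no control of its own number. Neither population is pure. The summed level of 17 cardiac myocyte markers was 48813 to 82834 on CM control arrays and 5136 to 32249 on FB control arrays, and that of 16 fibroblast markers was 21648 to 50535 on CM control arrays and 55310 to 61920 on FB control arrays.

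Levels are normalized intensities: the deposited intensities were scaled to a common 75th percentile, held at a floor of 7.86 and quantile normalized. A value at the floor is a bound and not a level, and a fold with treated arrays at the floor takes them at that value. Changes are log2 of treated over control from a linear model with the experiment as a block (limma), with Benjamini-Hochberg adjusted p-values over all probe-sets and a threshold of 0.05. Intensities of different probe-sets are not compared with each other. Arrays measure RNA in bulk, so fewer cells of a type and less RNA per cell cannot be told apart in any value below.

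Cyp7b1, a cytochrome enzyme that hydroxylates oxysterols on a route to bile acids, showed the largest measured fall of all probe-sets in fibroblasts after UV. Its single probe-set read 23.3, 14.99 and 15.8 on the FB UV arrays, against 349, 441 and 354 on the FB control arrays. All treated arrays lay far below all controls, and the difference was 21.5-fold (log2 change -4.42, SE 0.26, 3 pairs). In CM-enriched fractions the gene was at the floor on 3 of 3 UV arrays, against 9.90 and the floor on the 2 control arrays, so a fall could not have been measured there (log2 change -0.17, SE 0.32, adjusted p = 0.877).

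Ptprm, a receptor-type tyrosine phosphatase that mediates adhesion between like cells, was at or next to the floor in fibroblasts after UV. Its levels were 7.86, 7.86 and 8.65 on the FB UV arrays, against 154, 107 and 118 on the FB control arrays (log2 change -3.95, SE 0.18). In CM-enriched fractions the levels were 15.5, 21.7 and 10.2 after UV, against 58.1 and 56.4 in the controls. The groups did not overlap, and the transcript fell 3.12-fold (log2 change -1.64, SE 0.22, adjusted p = 0.000355), a change with adjusted p = 0.0538 when experiment 1 was left out.

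Slit3, a secreted ligand of Robo receptors known from axon guidance, was lowered in both populations. It read 40.1, 26.7 and 31.2 on the FB UV arrays, against 609, 483 and 327 on the FB control arrays, which is 14.2-fold lower (log2 change -3.83, SE 0.25). On the CM UV arrays it read 10.6, 8.65 and 8.14, against 73.2 and 39.2 on the CM control arrays. Each treated CM array was close to the floor and below both controls, and the tested change was a fall of 5.60-fold (log2 change -2.48, SE 0.31, adjusted p = 0.000194). With the floor raised to the 40th percentile of scaled intensities this call was lost (log2 change -0.93, adjusted p = 0.0690).

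Nfia, a transcription factor of the nuclear factor I family, is read by 3 probe-sets, and all of them were lower after UV in both populations. The brightest, D78018_s_at, gave 35.1, 10.2 and 23.7 on the FB UV arrays, against 271, 226 and 252 on the FB control arrays (log2 change -3.61, SE 0.23). The other probe-sets differed in size in fibroblasts, with log2 changes of -2.94 (SE 0.28) for X13167cds_s_at and -1.08 (SE 0.18) for X84210complete_seq_s_at. In CM-enriched fractions the test found falls of -1.29 (SE 0.28, adjusted p = 0.00806), -2.07 (SE 0.34, adjusted p = 0.00128) and -1.45 (SE 0.21, adjusted p = 0.000629) on the log2 scale for D78018_s_at, X13167cds_s_at and X84210complete_seq_s_at in that order. D78018_s_at read 18.6, 26.5 and 26.3 on the CM UV arrays, against 39.6 and 74.1 on the CM control arrays, and its call was lost without experiment 1 (adjusted p = 0.114) and without experiment 3 (adjusted p = 0.0522). X13167cds_s_at was at the floor on 2 of 3 CM UV arrays, and its call was lost without experiment 2 (adjusted p = 0.0824) and with the higher floor (adjusted p = 0.344).

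Adgrl2, an adhesion G protein-coupled receptor of the latrophilin family, also has 3 probe-sets, none of them at the floor on any UV or control array. AF063102_g_at read 58.5, 64.2 and 75.8 on the CM UV arrays, against 366 and 318 on the CM control arrays, and fell 5.56-fold (log2 change -2.48, SE 0.21, adjusted p = 1.54e-05). The same probe-set read 13.5, 11.8 and 8.41 on the FB UV arrays, against 183, 111 and 112 on the FB control arrays (log2 change -3.57, SE 0.17). AF063102_at (log2 change -1.59, SE 0.18, adjusted p = 0.000113) and AF081148_s_at (log2 change -1.74, SE 0.24, adjusted p = 0.000440) also fell in CM-enriched fractions, and both were lower in fibroblasts, with log2 changes of -2.08 (SE 0.15) and -1.18 (SE 0.20). Every treated array was below every control array for all 3 probe-sets in both populations.

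Plcl1 encodes a phospholipase C-related protein that binds inositol trisphosphate but lacks lipase activity, and its 3 probe-sets did not move alike. D45920_at read 12.7, 11.04 and 15.9 on the FB UV arrays, against 138, 134 and 156 on the FB control arrays (log2 change -3.44, SE 0.15). In CM-enriched fractions it was at the floor on 3 of 3 UV arrays, against 50.3 and 39.1 in the controls, and was thus at least 5.65-fold lower after UV (adjusted p = 5.50e-06). E12159cds_s_at was lower in fibroblasts (log2 change -2.20, SE 0.39) but was at the floor on 3 of 3 CM UV arrays and on 1 of the 2 CM controls, so that CM could not show a fall (log2 change -0.25, SE 0.47, adjusted p = 0.875). The third and brightest probe-set, rc_AI072447_s_at, gave 81.6, 181 and 83.6 on the FB UV arrays, against 88.9, 114 and 126 on the FB control arrays, with overlapping groups (log2 change -0.02, SE 0.31). In CM-enriched fractions rc_AI072447_s_at had a log2 change of -0.71 (SE 0.38, adjusted p = 0.247), with a 95% interval of -1.53 to 0.11.

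Inpp4a, a phosphatase of inositol lipids, was picked in CM-enriched fractions, where it was at the floor on 3 of 3 UV arrays, against 47.1 and 77.2 on the control arrays, or at least 7.67-fold lower. In fibroblasts, which were not used to pick it, the levels were 7.86, 8.04 and 7.86 after UV, against 77.2, 27.2 and 40.8 in the controls. Both groups of treated arrays lay at or next to the floor, and the transcript fell in fibroblasts, by a fitted 5.57-fold that takes 2 of the 3 UV arrays at the floor value (log2 change -2.48, SE 0.24, adjusted p = 9.85e-06). With the higher floor the change in fibroblasts was -0.69 (adjusted p = 0.0520).

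Stk39, the SPAK kinase that acts below WNK kinases on cation-chloride cotransporters, was read by 3 probe-sets of which 2 were lower after UV. D88190_s_at read 31.5, 24.6 and 28.7 on the FB UV arrays, against 238, 319 and 119 on the FB control arrays, a fall of 7.41-fold (log2 change -2.89, SE 0.50, adjusted p = 0.000920). Its CM UV arrays read 174, 18.5 and 20.8, against 424 and 377 on the CM control arrays, so that the described CM change of -2.82 (SE 0.61) joins a pair at -1.29 with a pair at -4.35. That SE comes from the spread shared by all groups and does not show how far these pairs lie apart. AF068261_s_at was at the floor on 3 of 3 FB UV arrays, against 46.7, 50.7 and 43.4 on the FB control arrays, or at least 5.96-fold lower (adjusted p = 2.04e-06), and read 45.8, 45.9 and 23.1 on the CM UV arrays, against 97.1 and 100.1 on the CM control arrays (log2 change -1.10, SE 0.25). The third, rc_AI043684_at, showed no fall in fibroblasts: 53.5, 84.2 and 67.3 after UV, against 49.3, 59.1 and 53.8 in the controls (log2 change 0.32, SE 0.17, adjusted p = 0.238, 95% interval -0.06 to 0.69).

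Scfd2, a member of the Sec1 family of proteins that work with SNAREs in membrane fusion, has 2 probe-sets from the same sequence. The brighter, rc_AA799410_g_at, gave 9.65, 8.08 and 7.86 on the FB UV arrays, against 63.9, 83.6 and 68.2 on the FB control arrays, and fell 8.41-fold (log2 change -3.07, SE 0.18, adjusted p = 2.17e-07). The other, rc_AA799410_at, gave 17.8, 12.5 and 17.9 after UV, against 41.9, 12.9 and 54.4 in the FB controls, where pair 2 hardly differed. Its change of -0.96 (SE 0.29, adjusted p = 0.0286) passed the test in fibroblasts but not without the experiment as a block (adjusted p = 0.180), without experiment 1 (adjusted p = 0.320), without experiment 3 (adjusted p = 0.318) or with the higher floor (adjusted p = 0.168). In CM-enriched fractions, where the gene was picked, rc_AA799410_at read 32.8, 34.4 and 12.4 after UV, against 197 and 281 in the controls (log2 change -2.81, SE 0.35), and rc_AA799410_g_at read 30.4, 49.3 and 44.8, against 166 and 260 (log2 change -2.42, SE 0.22).

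**Figure D1:**
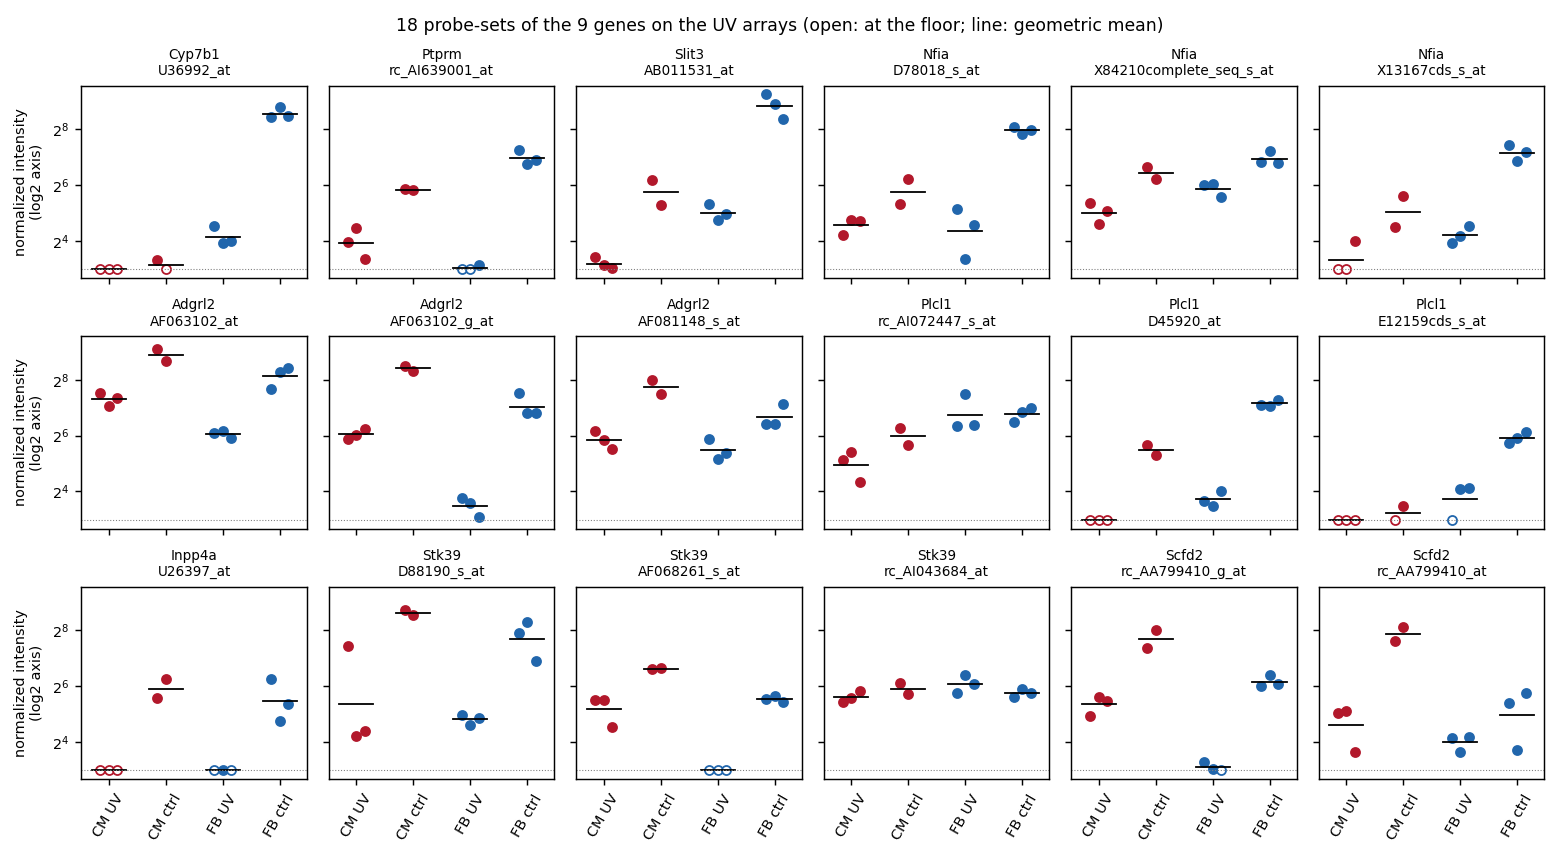
Normalized intensity (log2 axis) of the 18 probe-sets on the UV arrays, 1 point for each array and a line at the geometric mean of the group, with CM in red, fibroblasts in blue and values at the floor of 7.86 drawn open. Treated points lie below control points in most panels, and the exceptions are Plcl1 rc_AI072447_s_at in fibroblasts, Stk39 rc_AI043684_at in both populations, Scfd2 rc_AA799410_at in fibroblasts, and the panels where the CM controls are already at or near the floor (Cyp7b1 and Plcl1 E12159cds_s_at).

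No motif searched was in more than 3 of the 8 promoter stretches found. Upstream stretches of 250 bases were found for 8 of the 9 genes (RefSeq, GRCr8). Only 1 stretch was taken for each gene, also where many transcripts are annotated (57 for Adgrl2). Both strands were searched for the TATA box as TATAAA, the CCAAT box as CCAAT, the GC box as GGGCGG, the E-box as CACGTG, the cAMP response element as TGACGTCA, and the nuclear factor I palindrome, the motif of the family to which Nfia belongs. Of the 8, CCAAT was in 3, GGGCGG in 3, TATAAA in 1 and CACGTG in 1, and the other motifs in none, against 34%, 30.5%, 12.9% and 5.59% of 33469 promoters, with TGACGTCA in 1.59% and the palindrome in 0.0359%. The 3 stretches printed here belong to genes whose probe-sets were all lower after UV in both populations, as were those of Ptprm, Nfia and Inpp4a. G and C made up 69.2% in Slit3, 41.2% in Adgrl2 and 54.0% in Scfd2, against a median of 51.2%. The stretches not printed held 66.8% in Ptprm, 72.8% in Nfia, 68.4% in Plcl1, 69.2% in Inpp4a and 53.2% in Stk39. Slit3, Ptprm, Nfia, Plcl1 and Inpp4a were each richer in G and C than at least 87.4% of promoters. Capitals mark matches to the motifs, read on either strand, and each stretch runs toward the gene's start. The 3 printed stretches lie at chr10:20075679-20075928 on the plus strand, chr2:240495300-240495549 on the minus strand and chr14:34037229-34037478 on the plus strand.
Slit3: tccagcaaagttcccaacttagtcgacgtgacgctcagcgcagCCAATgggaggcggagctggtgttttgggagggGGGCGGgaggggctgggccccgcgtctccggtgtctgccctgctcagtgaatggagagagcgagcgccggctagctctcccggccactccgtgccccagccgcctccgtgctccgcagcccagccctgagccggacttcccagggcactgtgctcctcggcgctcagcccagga
Adgrl2: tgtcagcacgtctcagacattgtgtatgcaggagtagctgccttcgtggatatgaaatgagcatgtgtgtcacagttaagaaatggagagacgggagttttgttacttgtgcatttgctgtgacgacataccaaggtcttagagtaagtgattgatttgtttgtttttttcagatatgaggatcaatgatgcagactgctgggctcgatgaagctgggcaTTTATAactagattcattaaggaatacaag
Scfd2: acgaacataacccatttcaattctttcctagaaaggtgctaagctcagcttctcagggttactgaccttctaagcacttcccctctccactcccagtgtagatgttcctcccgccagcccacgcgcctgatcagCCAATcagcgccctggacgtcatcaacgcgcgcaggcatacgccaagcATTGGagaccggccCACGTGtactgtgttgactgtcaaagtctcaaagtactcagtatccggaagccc
Slit3 holds a CCAAT and a GGGCGG match, and Scfd2 a pair of CCAAT matches and a CACGTG. Adgrl2 holds a TATAAA match 30 bases before its annotated start, on the opposite strand, so that it is not read toward the gene. A match is a run of letters and not a measured site.

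Over the tested probe-sets, 9 of 12 were called lower in CM-enriched fractions after UV, from 5 of the 6 genes picked in fibroblasts, and none was called higher. Of all probe-sets, 8.16% were called lower and 8.62% higher in that comparison. The median log2 change of the 12 was -1.61, against 0 over all probe-sets, and for 10 of the 12 every treated array lay below both controls, as it did for 15.3% of all probe-sets. In fibroblasts after UV, 5 of 6 tested probe-sets were called lower, covering all 3 genes picked in CM-enriched fractions (Inpp4a, Stk39 and Scfd2), and none was called higher, against 11.2% of all probe-sets called lower and 11.7% called higher. The median of these 6 was -2.53, against 0 over all probe-sets, and in 4 of the 6 the groups did not overlap, against 13.9% of all probe-sets. All 9 genes span over 100 kb. Of other probe-sets of genes of 100 kb and over, 5.87% in the dimmest of 3 level classes to 72.7% in the brightest were called lower in fibroblasts. In CM the same shares were 4.74% and 50.9%. The genes were chosen with earlier results of these data known, so these counts are not free of that choice. The set does not hold every large fall: of the 8 probe-sets with the largest measured falls, 3 belong to it in CM-enriched fractions and 6 in fibroblasts. The next probe-set after the last member by size of fall was that of Medag in CM-enriched fractions (log2 change -2.80, next to -2.81 for Scfd2) and that of Kalrn in fibroblasts (-3.42, next to -3.44 for Plcl1).

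Marker levels also changed after UV, and not all lists moved the same way. After UV the summed cardiac myocyte markers were 62863 to 67693 in CM-enriched fractions, against 78339 to 82834 in their controls, and 10352 to 14629 in fibroblasts, against 24736 to 28949 in their controls. Summed fibroblast markers were 16899 to 22895 in CM-enriched fractions after UV, against 21648 to 29548 in their controls, and 43972 to 49907 in fibroblasts, against 57532 to 61920 in their controls. Of the 17 myocyte markers, 5 were called lower in CM-enriched fractions and 13 in fibroblasts, and of the 16 fibroblast markers 6 and 7 were called lower. A gene counts as called where 50% or more of its probe-sets passed. Of all genes, 9.21% were called lower in CM-enriched fractions and 13.0% in fibroblasts. Summed levels of 5 smooth muscle markers were 7798 to 9036 in CM-enriched fractions after UV, against 9279 to 12357 in their controls (2 of 5 called lower), and 3822 to 5316 in fibroblasts, against 7676 to 8661 in their controls (4 of 5 called lower). No marker of the myocyte, fibroblast and smooth muscle lists was at the floor on all arrays of any of these groups. Summed levels of 7 macrophage and leukocyte markers were 338.6 to 397.8 in fibroblasts after UV, against 235.1 to 291.2 in their controls (2 called higher, 0 lower). In CM-enriched fractions they were 253.9 to 385.2, against 262.5 to 346.8 (1 called lower, 0 higher), with 3 markers at the floor on all UV arrays. Of 7 endothelial markers 0 were called in either population. The part of these marker changes in the losses was not tested.

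After IR and after MS none of the 18 probe-sets passed the test in either population. In CM-enriched fractions after IR, 0.446% of all probe-sets were called lower and 0.286% higher. The members' log2 changes there had a median of -0.13 and ran between -0.52 and 0.67 (lowest adjusted p = 0.337), with 1 of 18 under an unadjusted p of 0.05. That probe-set was Slit3, which read 184, 187 and 167 on the CM IR arrays, against 69.2, 133 and 156 on the CM control arrays, all treated arrays being higher (log2 change 0.67, SE 0.25, adjusted p = 0.337). In fibroblasts after IR the changes ran between -0.53 and 0.21, with a median of -0.10 (lowest adjusted p = 0.782), none under an unadjusted p of 0.05, where 0.0458% of all probe-sets were called lower and 0.0343% higher. For 0 of 18 probe-sets did all irradiated arrays lie below all controls, in CM-enriched fractions or in fibroblasts, as was the case for 4.11% and 2.2% of all probe-sets.

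Stretch gave members' changes of -0.46 to 0.33 in CM-enriched cultures (median 0.09, lowest adjusted p = 1) and of -0.36 to 0.34 in fibroblasts (median -0.00, lowest adjusted p = 0.922). The share of all probe-sets called lower or higher was 0% in both MS comparisons. The one member probe-set under an unadjusted p of 0.05 was Stk39 rc_AI043684_at in CM-enriched cultures, with 38.2, 32.4 and 37.1 after MS, against 51.8, 60.2 and 38.8 in the controls (log2 change -0.46, SE 0.17). It was also the 1 of 18 whose stretched arrays all lay below the controls in CM, against 3.66% of all probe-sets, and 0 of 18 did so in fibroblasts, against 2.43%. The 95% intervals of the 18 changes reached down to -1.28 and up to 1.21 in CM after IR, to -1.61 and 0.80 in fibroblasts after IR, to -1.05 and 1.17 in CM after MS and to -0.81 and 1.36 in fibroblasts after MS. Over all alternative fits the lowest adjusted p of any member was 0.241 in CM and 0.601 in fibroblasts after IR, and 0.699 in CM and 0.751 in fibroblasts after MS.

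**Figure D2:**
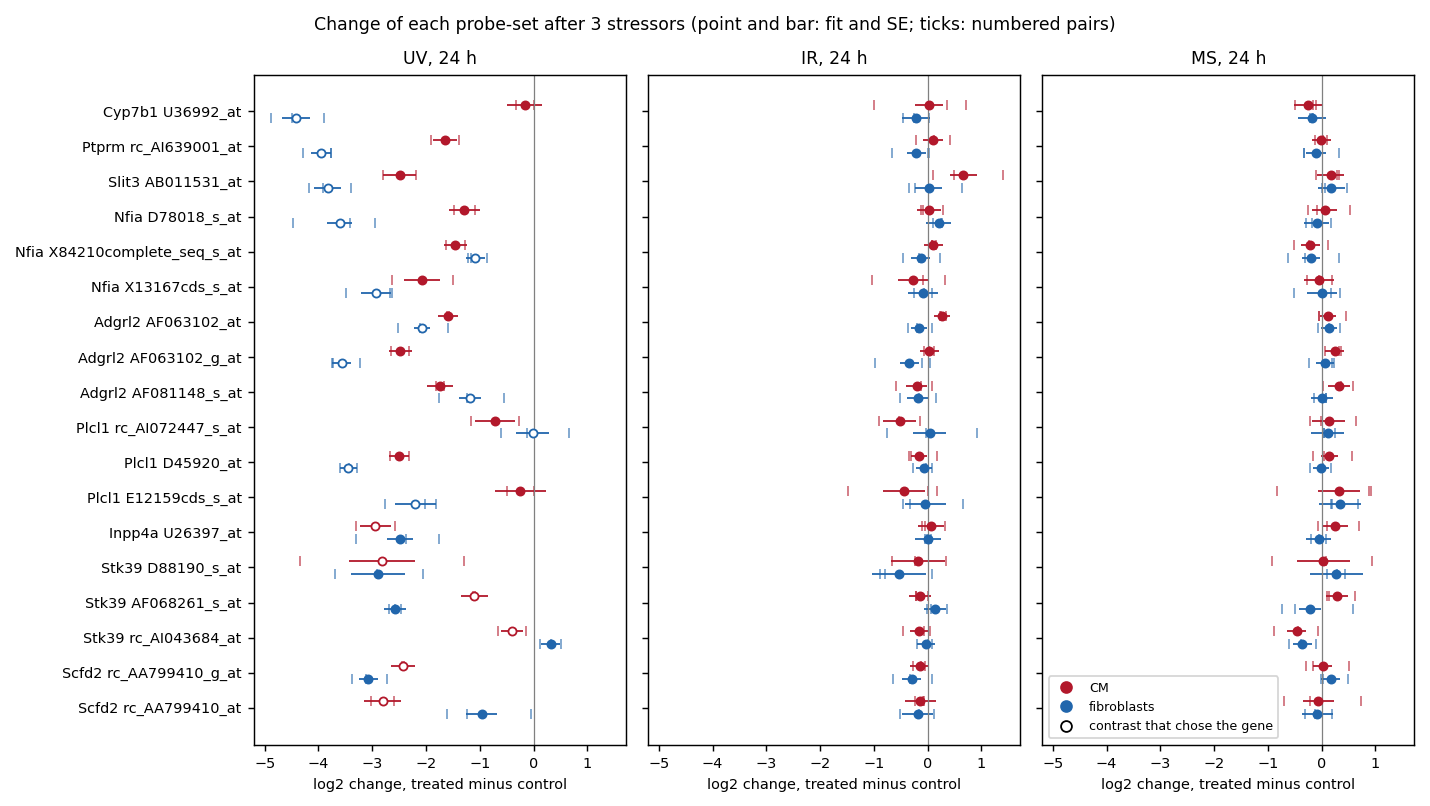
Log2 change of each probe-set (treated minus control) after UV, IR and MS, with points and bars for the fitted change and its SE, ticks for the numbered pairs, CM in red and fibroblasts in blue, and open points where that contrast picked the gene. Under UV most points lie between -1.08 and -4.42, whereas under IR and MS all fitted changes lie between -0.53 and 0.67.

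The levels of these genes without radiation or stretch differed between the populations and between experiments. In sham-irradiated IR controls, 13 of 18 probe-sets differed between CM-enriched fractions and fibroblasts, 6 lower and 7 higher in CM, where 13.2% of all probe-sets were called lower and 12.4% higher. In MS controls 7 of 18 differed, 6 lower and 1 higher in CM, against 12.8% and 10.5% of all probe-sets. Among IR controls the CM-enriched fractions had been elutriated and the fibroblasts had not, so elutriation and population cannot be told apart there, whereas neither population of the MS controls was elutriated. The CM IR controls were also deposited on a higher intensity scale (trimmed mean near 1001) than the FB IR controls (near 200). Scale and population thus cannot be told apart there either, whereas all MS controls were on the lower scale. In both sets of controls CM grew in horse serum, whereas fibroblasts were subcultured in foetal bovine serum. Serum and subculture therefore cannot be told apart from population in either set. By the study's flow cytometry, the share of CM was lower in the MS cultures than in the elutriated IR fractions.

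Adgrl2 AF063102_g_at had 662, 395 and 385 on the CM IR control arrays, against 100.1, 70.5 and 46.4 on the FB IR control arrays, the CM arrays being higher without overlap (log2 difference 2.76, SE 0.26, adjusted p = 3.12e-08). Its other probe-sets were also higher in CM there (1.45 and 2.07). Scfd2 (1.64 and 1.91), Stk39 AF068261_s_at (1.64) and Inpp4a (1.11) were likewise higher in CM among IR controls. Among MS controls the only one of these that passed was Stk39 AF068261_s_at (log2 difference 1.65, SE 0.33, adjusted p = 0.000795).

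Of the genes picked in fibroblasts other than Adgrl2, Slit3, Nfia, Plcl1, Ptprm and Cyp7b1 were each lower in CM in at least 1 set of controls. Slit3 read 69.2, 133 and 156 on CM IR control arrays, against 222, 312 and 530 on FB IR control arrays (log2 difference -1.56, SE 0.40, adjusted p = 0.00523). In IR controls all 3 Nfia probe-sets were lower in CM (log2 differences -0.94, -0.91 and -1.39), and 2 of 3 were lower in MS controls. Plcl1 D45920_at read 39.2, 33.3 and 46.5 on CM MS control arrays, against 426, 474 and 436 on FB MS control arrays (log2 difference -3.50, SE 0.50, adjusted p = 1.94e-05), and all 3 Plcl1 probe-sets were lower in CM there. Ptprm was lower in CM among MS controls (log2 difference -1.60, SE 0.44, adjusted p = 0.0102), with 69.2, 72.4 and 94.1, against 263, 268 and 188 in fibroblasts. With 1 experiment number left out, 6 to 11 probe-sets passed in IR controls and 1 to 6 in MS controls.

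Cyp7b1 varied most. Its control levels were 59.4, 16.4 and 22.1 in CM and 508, 412 and 3478 in FB under IR (log2 difference -5.01, SE 0.69, adjusted p = 5.77e-06), and 56.0, 132 and 112 in CM and 90.9, 99.6 and 77.2 in FB under MS (log2 difference 0.08, SE 0.69, adjusted p = 1). The FB pair of IR experiment 3 stood apart: Cyp7b1 read 3563 on the irradiated and 3478 on the control array, against 301 to 508 on the other FB arrays of the IR experiments. In the same pair Plcl1 D45920_at read 42.7 and 51.6, against 198 to 311 on the others, and Ptprm 53.2 and 52.2, against 147 to 231. Treated and control arrays of that experiment deviated together, with log2 changes within the pair of 0.03 for Cyp7b1, -0.27 for Plcl1 D45920_at and 0.03 for Ptprm. Without experiment 3 the Cyp7b1 difference in IR controls was -3.86 (adjusted p = 0.000187), and Plcl1 D45920_at then passed as lower in CM (log2 difference -1.67, adjusted p = 0.000246).

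**Figure D3:**
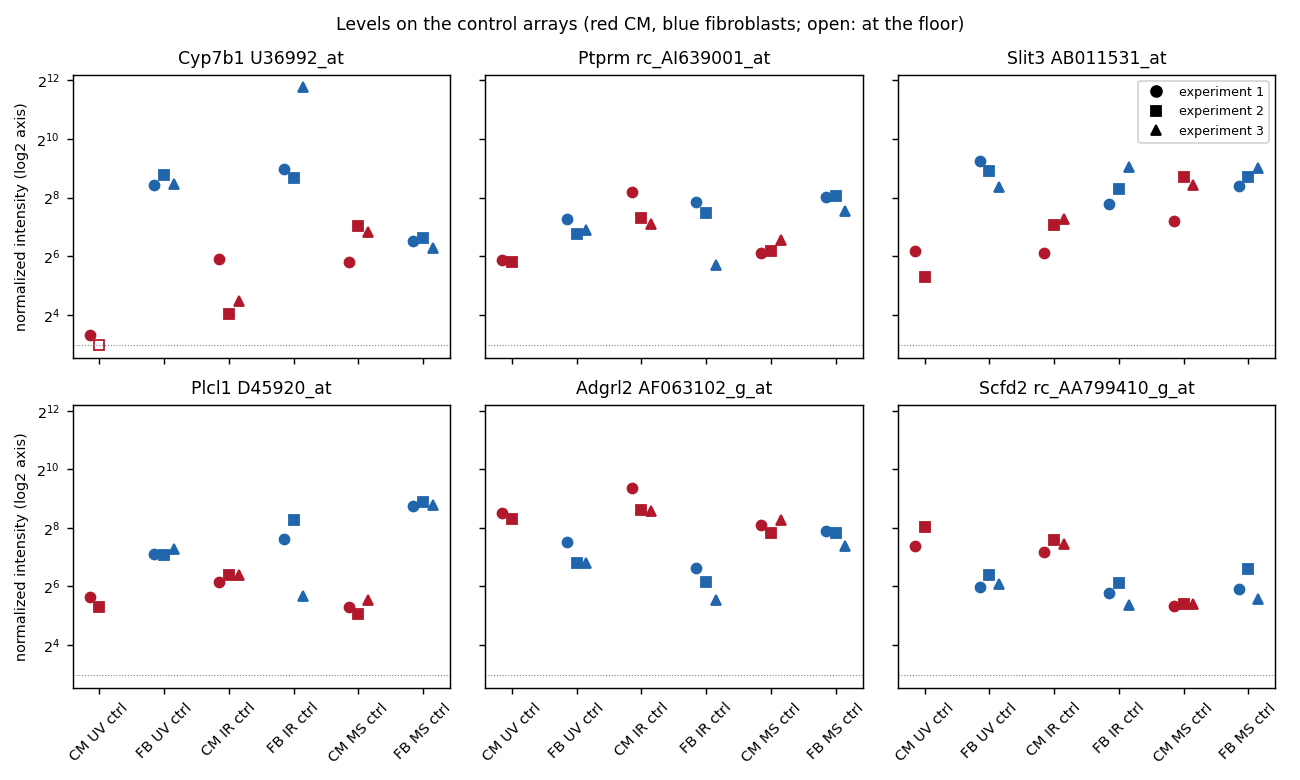
Normalized intensity (log2 axis) on the control arrays for 1 probe-set each of 6 genes, with CM in red, fibroblasts in blue and a marker shape for each experiment number. Cyp7b1 runs from the floor in CM UV controls to 3478 in FB IR control 3, whereas Adgrl2 and Scfd2 are higher in CM than in fibroblasts under IR.

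The 9 genes were put together with long genes in mind, so their own lengths are a description and no independent result. The annotated spans (RefSeq, GRCr8) were 705 kb for Ptprm, 631 kb for Adgrl2, 585 kb for Slit3, 538 kb for Nfia, 337 kb for Plcl1, 332 kb for Scfd2, 267 kb for Stk39, 167 kb for Cyp7b1 and 118 kb for Inpp4a. All 9 thus exceed 100 kb and 6 exceed 300 kb, whereas 13.5% and 3.82% of the 4718 array genes with a span do so and the median array gene spans 21.7 kb. Within the set, Cyp7b1 had the largest measured fall in fibroblasts and the second shortest span. That fall comes from the contrast that picked the gene. Ptprm, with the longest span, was at the floor on 2 of 3 FB UV arrays, so its fall was limited by the floor. The falls of the members therefore cannot be ranked against span.

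With the 9 genes left out, calls after UV were distributed unevenly over gene span on the rest of the array. In fibroblasts after UV, the share of probe-sets called lower was 6.09% for genes under 10 kb, 7.21% for 10 to 30 kb, 13.0% for 30 to 100 kb, 33.6% for 100 to 300 kb and 28.5% for 300 kb and over. Shares called higher in the same classes were 15.7%, 18.2%, 9.65%, 1.53% and 0%. In CM-enriched fractions after UV the shares called lower were 4.68%, 5.95%, 9.34%, 20.8% and 20.2%, and those called higher were 12.8%, 13.1%, 5.19%, 0.696% and 1.12%. Median log2 changes were -0.33 for 100 to 300 kb and -0.13 for 300 kb and over in fibroblasts, and -0.30 and -0.13 in CM-enriched fractions, against 0.08 and 0.04 for genes under 10 kb. These are descriptions across genes, which are not independent replicates.

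Long genes were also dimmer on the array, with 34.6% of values of the longest class at the floor, against 19.0% for genes under 10 kb. When probe-sets at the floor on more than 50% of the arrays were left out, the median of the longest class was -0.54 in fibroblasts and -0.50 in CM-enriched fractions. Among the brightest of 3 equal classes of probe-sets by level, 72.7% of those from genes of 100 kb and over were called lower in fibroblasts after UV (median log2 change -1.04), against 14.1% of those from genes under 30 kb (median 0.09). The same shares in CM-enriched fractions were 50.9% (median -0.75) and 10.5% (median 0.12). After IR and MS the class medians ran between -0.023 and 0.022 over all probe-sets and between -0.050 and 0.061 without the dim ones. No probe-set of a gene of 100 kb or more was called lower there, but few or no probe-sets of any length were. The shares called lower over all probe-sets were 0.446% in CM and 0.0458% in fibroblasts after IR, and 0% in both after MS. Calls after MS therefore cannot be set against gene span. Gene length moved with the calls after UV, and its part in the losses was not tested.

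**Figure D4:**
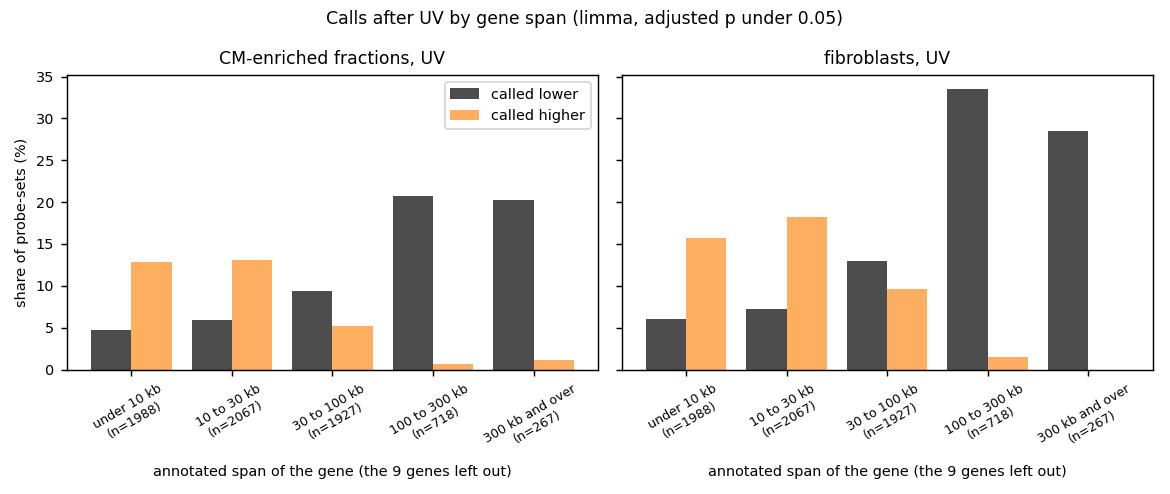
Share of probe-sets (%) called lower (dark) and higher (orange) after UV in classes of annotated gene span, with the 9 genes left out and the number of probe-sets under each class. In fibroblasts the dark bars rise to 33.6% and 28.5% in the longest classes, where the orange bars are at 1.53% and 0%, and in CM-enriched fractions the dark bars reach 20.8% and 20.2%.

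Relatives of the 9 genes, taken from 9 lists by family and pathway, did not fall as a body. Of 137 such genes on the array, counting a gene as called where 50% or more of its probe-sets passed, 27 (19.7%) were lower and 17 (12.4%) higher in fibroblasts after UV, against 13.0% and 13.9% of all genes. In CM-enriched fractions 14 (10.2%) were lower and 19 (13.9%) higher, against 9.21% and 10.2% of all genes. The relatives called lower had a median span of 110 kb in fibroblasts and 183 kb in CM-enriched fractions, and those called higher had medians of 21.3 kb and 18.7 kb. None of the 17 and none of the 19 genes called higher spanned 100 kb, whereas 15 of the 27 and 9 of the 14 called lower did. Relatives with no call had medians of 55.8 kb and 67.4 kb, and the median array gene spans 21.7 kb. The split was not particular to relatives. Over the array without the 9 genes, 37.8% of probe-sets called lower in fibroblasts and 33.9% in CM were from genes of 100 kb or more. Among probe-sets called higher these shares were 1.24% and 1.26%. Calls of single relatives were fragile in CM-enriched fractions: of the 31 leading calls over the lists, repair genes included, 2 (Nfib and Nrp1) held under every alternative fit, as did 18 of 33 in fibroblasts, among them Ptprg, Ptprv, Nrp1, Nfib, Nfix, Itpr1, Plcb4, Stx8, Snap23, Slc12a4, Akr1c14 and Polr2g.

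Of 17 receptor-type tyrosine phosphatases, the family of Ptprm, 4 were lower and 1 higher in fibroblasts, and 3 were lower and 1 higher in CM-enriched fractions. For a relative with several probe-sets, the value is that of the probe-set with the lowest adjusted p in that comparison, unless another is named. Other probe-sets of the same gene can differ. Ptprg fell in both populations (log2 change -2.32 in fibroblasts, adjusted p = 1.87e-05, and -1.58 in CM, adjusted p = 0.00324), and Ptprv rose in both (2.62 and 2.03). Of 21 axon guidance genes, the field in which Slit3 is known, 4 were lower and 2 higher in fibroblasts and 2 were lower and 2 higher in CM. The semaphorin receptor Nrp1 fell in both (-2.29, adjusted p = 9.98e-08, and -1.74, adjusted p = 1.73e-05), and Robo1, a receptor of Slit proteins, fell in fibroblasts (-1.30, adjusted p = 0.0185).

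Among 11 transcription factors of the nuclear factor I, NF-Y and C/EBP families, 2 were lower and 3 higher in fibroblasts and 2 lower and 2 higher in CM. Nfib, of the same family as Nfia, fell by 2.73 in fibroblasts (adjusted p = 3.36e-08) and by 1.57 in CM (adjusted p = 4.15e-05) on the log2 scale. Both values are from AB012231_s_at, among 4 probe-sets. Nfix fell by 0.86 in fibroblasts (AB012234_g_at, among 3 probe-sets, adjusted p = 0.000352). Cebpb rose in CM (0.82, adjusted p = 0.0115). Of 13 phospholipases C and inositol trisphosphate receptors, 2 were lower and 2 higher in fibroblasts and 1 lower and 3 higher in CM. Itpr1 was lower in fibroblasts (-3.02 for J05510_at, among 5 probe-sets, adjusted p = 2.11e-06) and Plcg1 higher in both (0.59 and 0.52). Plcb4 was lower in both, with -2.42 for AF027571_s_at in fibroblasts and -1.27 for L15556_at in CM. The change of L15556_at in fibroblasts was -1.93.

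Of 19 phosphoinositide enzymes, relatives of Inpp4a, 5 were lower and 4 higher in fibroblasts and 1 lower and 3 higher in CM. Pik3r1, the regulatory subunit of phosphoinositide kinases, fell in both (-1.78 and -1.42). The phosphatase Synj1 rose in both, by different probe-sets (0.68 for U45479_at in fibroblasts and 2.19 for AJ006855_s_at in CM). Of 12 genes around Stk39, namely kinases and cation-chloride cotransporters, 1 was lower and 1 higher in each population: the kinase Stk3 fell (-1.12 in fibroblasts and -1.09 in CM) and the cotransporter Slc12a4 rose (1.10 and 1.03). Of 29 Sec1 and SNARE genes, 6 were lower and 3 higher in fibroblasts and 4 lower and 5 higher in CM, with Stx8 falling in both (-3.26, adjusted p = 6.79e-07, and -1.69, adjusted p = 0.00121) and Snap23 rising in both (0.88 and 0.58). Of 11 oxysterol and bile acid enzymes, 3 were lower and 1 higher in fibroblasts and 0 lower and 2 higher in CM, led by a fall of Akr1c14 in fibroblasts (-2.95) and a rise of Cyp27a1 in CM (1.76). None of 4 adhesion receptors and latrophilin ligands was called in either population. Of 15 genes of excision repair and RNA polymerase II, 0 were lower and 3 higher in fibroblasts and 1 lower and 3 higher in CM, with Pcna (1.42 and 1.09) and Polr2g (0.75 and 0.50) higher in both.

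Across the 12 group means, the genes whose pattern was most like that of each member (Pearson r, brightest probe-set, no test, treated and control groups sharing their experiments) were Ppp2r2b (r = 0.99) and Lyn (0.97) for Adgrl2, Tcf12 (0.98) and Fer (0.97) for Nfia, Cask and Map2k5 (both 0.97) for Slit3, and Ltbp1 and Evl (both 0.97) for Ptprm. For the others they were Pth1r and Agtr1a (both 0.93) for Cyp7b1, Fdps (0.97) and Camkk1 (0.96) for Plcl1, Zmym4 (0.96) and Plcb4 (0.95) for Inpp4a, Blmh (0.96) and Prim2 (0.95) for Stk39, and Celf2 and Grb10 (both 0.95) for Scfd2. Within the set, the member probe-set most like Slit3 was a probe-set of Nfia (r = 0.96), and the brightest Nfia probe-set had r = 0.95 with Slit3. The 12 groups include the UV groups whose falls picked the members, so likeness between members is partly fixed by that choice. For Plcl1 the brightest probe-set is the one that was not lower in fibroblasts after UV, so its nearest genes follow that probe-set and not D45920_at.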

How the data were processed

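Deposited intensities of 35 arrays (1 colour, linear scale, 1 value for each probe-set) were used as the authors gave them; the study's methods name GeneChip software for the scanner and describe gcrma and VSN, but the deposited values are linear, at the same trimmed mean within each of 2 sets of arrays, and the step that made them is not given in the sources used here. The trimmed mean was near 200 on 26 arrays and near 1001 on 9, so each array was scaled to a 75th percentile of 200. The 9 were all CM arrays of the IR experiments, CM UV control 2, and CM UV arrays 2 and 3. Values under 7.86, the 20th percentile of scaled intensities, were set to that floor, and log2 values were quantile normalized (R 4.3.3, limma 3.58.1, statmod 1.5.0). At the floor were 14.46% to 24.7% of values on an array; the number of arrays limits the precision. Tests ran on 8740 probe-sets, without the 59 array controls. Of these, 7006 had 1 symbol, 308 several and 1426 none, and 6985 matched the gene table.

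Treated and control arrays were compared within each population and stressor by limma with an intensity trend and the experiment number as a block, as the study's model has an experiment term (residual df 11). Arrays of the same number deviated together with r = 0.06 to 0.80, over 0.1 in 15 of 17 pairs. CM and FB controls were compared by group means with no block. That fit counts treated and control arrays of the same experiment as independent, although they deviated together. The p-values of the control differences may therefore be too small, and no random-block fit was made for them. Nothing in the labels says that numbered experiments were separate animals. The p-values of treatment changes rest on how those changes vary between numbered experiments, as a spread shared by all groups. Those of control differences rest on the spread between arrays within groups, also shared by all groups. The 9 genes and all lists were chosen with earlier results of these data known. Genes named beyond the 9 were taken by rule: up to 4 of each list with the lowest adjusted p, the 2 most like each member over group means, and the next after the last member by size of fall. Alternatives were no block, a random block, scaling without quantile normalization, a pseudocount, a higher floor, no dim probe-sets, scan and lot blocks, and leaving out each replicate.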

Additional observations from a re-analysis of the deposited data

Results flagged for a closer look

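Stk39 rc_AI043684_at moved in opposite directions in the 2 populations after UV. Both CM pairs were lower (log2 changes -0.67 and -0.14), whereas the 3 fibroblast pairs were higher (0.12 to 0.51), and the CM change minus the fibroblast change was -0.72. The difference between the populations was not tested, since the gene was picked in CM after UV. Treated and control arrays overlapped in both populations, and the other Stk39 probe-sets, D88190_s_at and AF068261_s_at, were lower after UV in both.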

How the results depend on the processing

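Of 50 member changes or differences with an adjusted p under the threshold, 0 changed sign under any alternative, whereas 44 of the other 94 did so in at least 1 fit. The 50 hold the 9 and 5 tested UV calls and the 13 and 7 control differences. The rest come from the contrasts that chose the genes as large falls, so their kept sign is no support. The rise of Cyp7a1 in fibroblasts after UV was 0 with the floor at the 40th percentile. Of the tested members, 9 probe-sets were lower in CM after UV, 7 with the floor at the 40th percentile and 7 to 8 with 1 replicate left out; 5 were lower in fibroblasts, 3 with that floor, 4 without the replicate block and 4 to 5 with 1 replicate left out. In CM after UV, leaving out a paired replicate leaves 1 pair, assumed to vary like the other groups. Between controls, 13 (IR) and 7 (MS) probe-sets differed, 6 to 11 and 1 to 6 with 1 replicate left out. Over all probe-sets, 713 were lower in CM after UV, 348 without the replicate block and 276 to 537 with a replicate left out, and 978 in fibroblasts, 586 without the block and 648 to 737 with a replicate left out. After IR, 39 were lower in CM, 23 without the replicate block, 24 with scan as a block, 21 with lot as a block and 4 to 10 with a replicate left out, and 4 in fibroblasts, 9 with a random replicate block, 7 with a pseudocount, 12 without dim probe-sets and 0 to 2 with a replicate left out. After MS none was lower in the limma fit of CM (414 of either direction under an unadjusted p of 0.05), 1 with the higher floor and 0 to 2 with a replicate left out, and none in fibroblasts (468), 0 to 4 with a replicate left out. For genes of 300 kb and over, the median change in CM after UV was -0.13, -0.35 without quantile normalization, -0.50 without dim probe-sets and -0.13 to -0.079 with a replicate left out; in fibroblasts it was -0.13, -0.25, -0.54 and -0.20 to -0.10 in the same order. The cause of these differences was not tested. Values at the floor limit what can be measured: Cyp7b1 and Plcl1 E12159cds_s_at in CM had no room to fall.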
